A study of Mus musculus with 2 samples.

Results

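Chemokines are small secreted proteins that bind heparan sulphate on cells and matrix and draw leukocytes along their gradients. Ligands are named for the spacing of their first cysteines (CC, CXC, XC and CX3C), and most are read by G protein-coupled receptors that signal through Gi proteins to the actin cytoskeleton. Atypical receptors bind chemokines without Gi signalling and clear or hold them. In the lung the family places monocytes, macrophages, granulocytes and innate lymphoid cells, and before birth Cxcl12 and its receptor Cxcr4 also take part in vessel growth.

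The members of the family were all gene rows of the feature lists whose symbol starts with Ccl, Cxcl, Xcl, Cx3cl, Ccr, Cxcr, Xcr, Cx3cr or Ackr followed by a number and at most 1 letter. The rule found 66 of 32285 gene rows, standing for 60 symbols because 7 rows lie on unplaced scaffolds. They comprised 44 ligand rows, 18 receptor rows and 4 atypical receptor rows. The rule used names alone, so none of the values below chose the members.

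Nuclei came from the lungs of wild-type C57BL/6J mouse fetuses on gestation day 18. They were read with 10x Multiome, which counts RNA molecules (unique molecular identifiers, UMIs) and open chromatin (transposition events in peaks) in the same nucleus. One library held 9 pooled fetuses of a dam given phosphate-buffered saline (PBS), and the other held 8 pooled fetuses of a dam with ovalbumin (OVA) asthma. All dams were 6 to 8 weeks old at sensitization, and so older in pregnancy, and were mated with untreated males after the second injection. They were injected with alum on days -21 and -7, the OVA dams together with 100 µg OVA, and received PBS or 500 µg OVA into the nose every few days from gestation day 4 to 17. Sorted group 2 innate lymphoid cells (ILC2: CD45+, Lin-, ST2+), other CD45+ cells and EpCAM+ epithelial cells were mixed before loading, so shares of types follow the sort as well as the tissue. Fibroblast-, myofibroblast- and pericyte-like nuclei are of types that this sort was not set to take, and fibroblast-like nuclei alone were 25.1% and 25.7% of the kept nuclei. With 1 library and 1 dam for each treatment there is no replicate. No p-value is therefore given. Every interval is a 95% interval for counting error only, and a difference between the libraries compares these 2 libraries and not the conditions.

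The libraries held 8019 (PBS) and 5960 (OVA) barcodes with 11473351 and 13774959 gene UMIs, of which 45.2% and 29.2% were mitochondrial. After filtering, 4279 and 4996 nuclei remained, with medians of 649 and 1213.5 UMIs of nuclear genes. Levels are counts per 1000000 nuclear-gene UMIs (CPM), so the unequal mitochondrial share is not in the denominator. Clusters were built without any member and named from marker genes outside the family, and the names carry "-like" because they were rebuilt here. Of 26 clusters, 2 stayed unnamed, and 9 types reached 50 nuclei in both libraries. Macrophage-like nuclei numbered 1156 (PBS) and 1414 (OVA), fibroblast-like 1076 and 1282, and ILC2-like 364 and 485. Clusters c0 and c2, which hold most macrophage-like nuclei, rest on 3 and 4 of 8 macrophage markers and follow the library in part, with 829 and 403 nuclei in c0 against 141 and 795 in c2. The libraries shared 54 barcode sequences, 30 of them among kept nuclei, and leaving these out ended or reversed no call between the libraries.

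Several members lie side by side in the genome, and their upstream sequence is shown because neighbours on chromosome 5 had unlike patterns across cell types and a pair on chromosome 11 had a like one. On chromosome 5, 5 CXC ligand genes lie within 147 kb, and the start of Cxcl15 is 8.43 kb from that of Cxcl3 and 96.7 kb from that of Cxcl1. Cxcl1, Cxcl2 and Cxcl3 encode ligands of the neutrophil receptor Cxcr2, while Cxcl15, also called lungkine, is made in lung epithelium. The 250 bases before the RefSeq start on GRCm38.p6 are given 5′ to 3′. Capitals mark where GGAANTTCC and GGGANTTTC, 2 forms of an NF-kB motif that overlap here, matched on either strand. These windows lie on the plus strand at chr5:90785851-90786100 (Cxcl3), chr5:90794284-90794533 (Cxcl15), chr5:90890995-90891244 (Cxcl1) and chr5:90903649-90903898 (Cxcl2).
Cxcl3: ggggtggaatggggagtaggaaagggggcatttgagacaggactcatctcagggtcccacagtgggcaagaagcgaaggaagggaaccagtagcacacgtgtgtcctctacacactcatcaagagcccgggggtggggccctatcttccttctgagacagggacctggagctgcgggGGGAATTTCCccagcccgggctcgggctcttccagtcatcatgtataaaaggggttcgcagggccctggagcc
Cxcl15: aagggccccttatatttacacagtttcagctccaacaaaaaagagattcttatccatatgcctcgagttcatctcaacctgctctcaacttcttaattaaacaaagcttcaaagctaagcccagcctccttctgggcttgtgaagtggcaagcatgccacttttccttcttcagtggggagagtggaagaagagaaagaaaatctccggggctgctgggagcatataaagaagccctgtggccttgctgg
Cxcl1: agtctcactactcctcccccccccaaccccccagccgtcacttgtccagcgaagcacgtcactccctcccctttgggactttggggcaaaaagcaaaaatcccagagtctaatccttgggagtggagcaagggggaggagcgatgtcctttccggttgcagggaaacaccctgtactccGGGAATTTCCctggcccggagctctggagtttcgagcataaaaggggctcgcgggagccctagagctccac
Cxcl2: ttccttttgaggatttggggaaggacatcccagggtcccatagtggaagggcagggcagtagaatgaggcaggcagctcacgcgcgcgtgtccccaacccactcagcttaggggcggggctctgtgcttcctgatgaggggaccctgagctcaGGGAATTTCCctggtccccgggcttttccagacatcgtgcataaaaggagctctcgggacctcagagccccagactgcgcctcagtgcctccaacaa
The first base of GGAANTTCC stood at -72 in Cxcl3, -70 in Cxcl1 and -96 in Cxcl2, and neither form was in the Cxcl15 window. Over all 32851 promoters of that length in the table, 0.813% held GGAANTTCC and 0.941% held GGGANTTTC. Of the 52 promoters of members, 7 (13.5%) held the first form and 6 (11.5%) the second. A match is a description of the letters and not a binding site.

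On chromosome 11 the starts of Ccl9 and Ccl6, 2 CC ligands of Ccr1, are 14.5 kb apart within a block of 5 CC ligand genes spanning 139 kb. Their windows are on the minus strand at chr11:83578637-83578886 (Ccl9) and chr11:83593088-83593337 (Ccl6), with the AP-1 motif TGANTCA in capitals.
Ccl9: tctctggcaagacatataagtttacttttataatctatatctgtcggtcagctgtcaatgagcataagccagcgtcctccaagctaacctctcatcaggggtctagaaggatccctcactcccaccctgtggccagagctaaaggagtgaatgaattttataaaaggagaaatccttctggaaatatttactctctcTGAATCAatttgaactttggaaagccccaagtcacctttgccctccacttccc
Ccl6: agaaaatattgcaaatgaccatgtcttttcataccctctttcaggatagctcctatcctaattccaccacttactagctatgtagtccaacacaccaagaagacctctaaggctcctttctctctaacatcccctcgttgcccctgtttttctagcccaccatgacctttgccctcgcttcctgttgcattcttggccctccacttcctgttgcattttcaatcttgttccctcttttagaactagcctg
The motif stood at -53 in Ccl9 and was not in the Ccl6 window. It occurred in 6.75% of all promoters and in 6 of 52 member promoters (11.5%).

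Counted over the kept nuclei, the family gave 14100 UMIs, of which 5355 were from PBS and 8745 from OVA nuclei. Ligands gave 10495 of these, receptors 3431 and atypical receptors 174. The family was uneven: Cxcl15, Ccl6, Cxcl2, Cx3cr1 and Ccl9 together held 66.9% of its UMIs. No UMI was found for 11 members. Of these, 10 were copies of Ccl19, Ccl21 or Ccl27, ligands that lie in near-identical copies, and the other was Ackr1, the Duffy receptor of red cells and venules. The chromosome 4 rows of Ccl27a and Ccl21a had 25 and 1 UMIs. The part of reads that could not be placed in these zeros was not tested. A count of 0 allows up to 3 UMIs. Another 31 members had 1 to 49 UMIs, 13 of them at most 3. The remaining 24 (36.4%) had at least 50 UMIs, against 38.8% of all nuclear genes, and comprised 16 ligands, 7 receptors and 1 atypical receptor. UMIs in nuclei include intronic reads and so follow gene length, for which reason levels are compared here across cell types and not between genes.

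A member was called raised in a type where its CPM was at least 2-fold that of the other types summed, with an interval above 1, in each library separately. By this rule 19 of the 24 were raised in at least 1 type, against 44.6% of the 12516 nuclear genes with at least 50 UMIs. Macrophage-like nuclei carried most, with 9 of 24 raised (12.2% of all genes). Fibroblast-like nuclei had 3 (7.76%), ILC2-like 3 (5.98%), monocyte-like 3 (3.56%) and mast cell or basophil-like 3 (3% of genes). Pericyte-like nuclei had 2 (4.26%), and AT1-like (9.31%), AT2-like (6.27%) and myofibroblast-like nuclei (5.9%) had 1 each. The 5 members with at least 50 UMIs that were raised in no type were Ccl25, Ccl5, Ccl7, Cxcl10 and Ackr3.

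**Figure D1:**
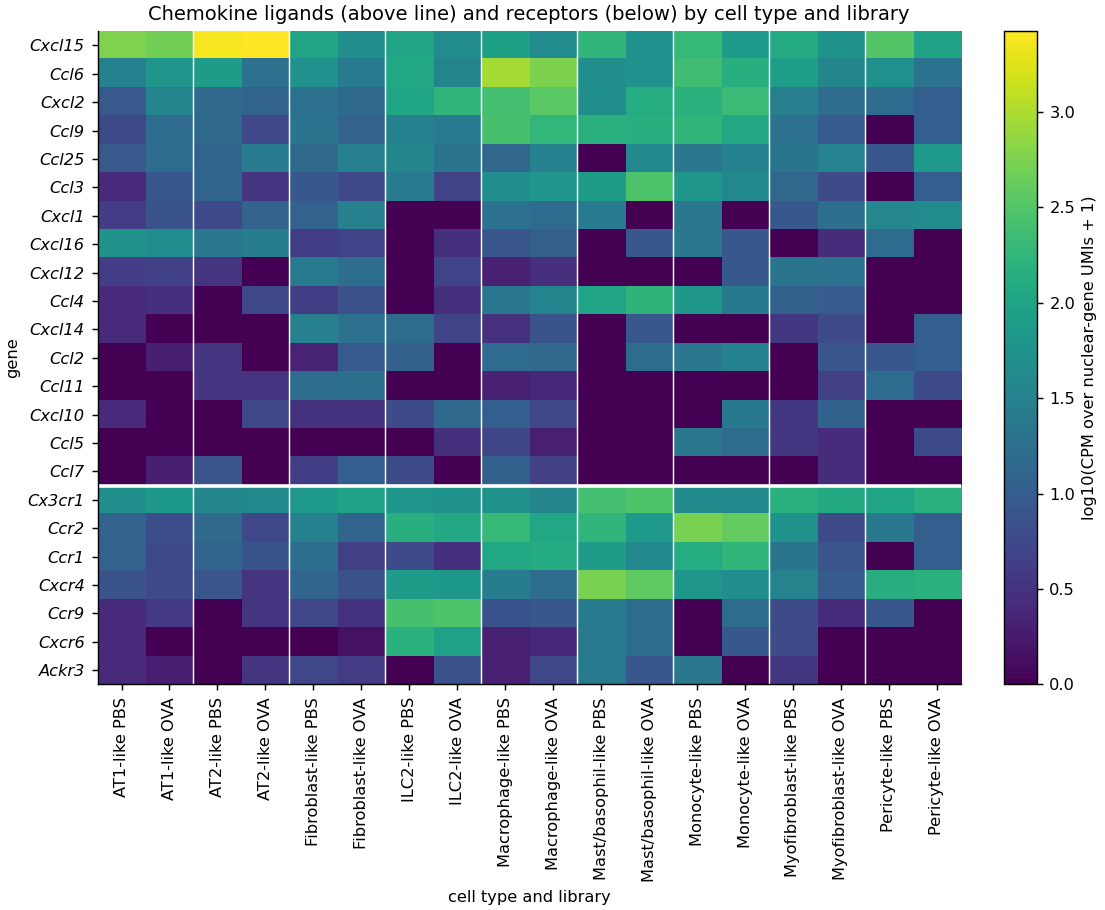
Level of 23 members with at least 50 UMIs (rows, ligands above the line and receptors below) in 9 cell types and both libraries (columns), as log10(CPM + 1). Brighter cells are higher, and Cxcl15 is brightest in AT2-like nuclei, Ccl6 and Ccl9 in macrophage-like nuclei, Cxcr6 and Ccr9 in ILC2-like nuclei, and Cxcr4 in mast cell or basophil-like nuclei.

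Cxcl15 (ENSMUSG00000029375, start at chr5:90794534) was the epithelial ligand of the family. It gave 1845 UMIs in PBS and 2193 in OVA nuclei. In AT2-like nuclei, the surfactant-making alveolar type 2 cells, it stood at 2385 and 2643 CPM. That was 12-fold (10.8 to 13.2) and 22.5-fold (20.6 to 24.7) the other types. A UMI was found in 74.9% and 85.9% of AT2-like nuclei, at median depths of 839 and 1406 nuclear UMIs. In fibroblast-like nuclei, which should lack the transcript, 7.4% and 7.6% had one at median depths of 629.5 and 1466. With each nucleus thinned to 500 UMIs the shares were 59.9% and 65.2% in AT2-like and 5.5% and 3.1% in fibroblast-like nuclei. AT2-like nuclei led in both libraries on either scale.

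Outside AT2-like nuclei Cxcl15 was highest in AT1-like nuclei, the flat gas-exchange cells, at 577 and 494 CPM. The 6 AT2 markers were all detected there too, with Sftpc, the AT2 surfactant protein C, at 8540 and 6642 CPM. Per 100 Sftpc UMIs there were 7.77 and 9.18 Cxcl15 UMIs in AT2-like nuclei and 6.76 and 7.44 in AT1-like nuclei. In the other 7 types that ratio lay between 6.09 and 20.5, with Cxcl15 at 43.3 to 319 CPM. Barcodes with fewer than 200 genes held Cxcl15 at 424 and 390 CPM. Chromatin at the Cxcl15 start gave another view of the same nuclei, with 45.9 and 42.7 transposition counts per 1000000 in AT2-like and 34.5 and 18.3 in AT1-like nuclei. In fibroblast-like nuclei it was 0.31 and 0.56 and in macrophage-like nuclei 0.30 and 0.49. How far free RNA sets Cxcl15 in the non-epithelial types was not tested.

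**Figure D2:**
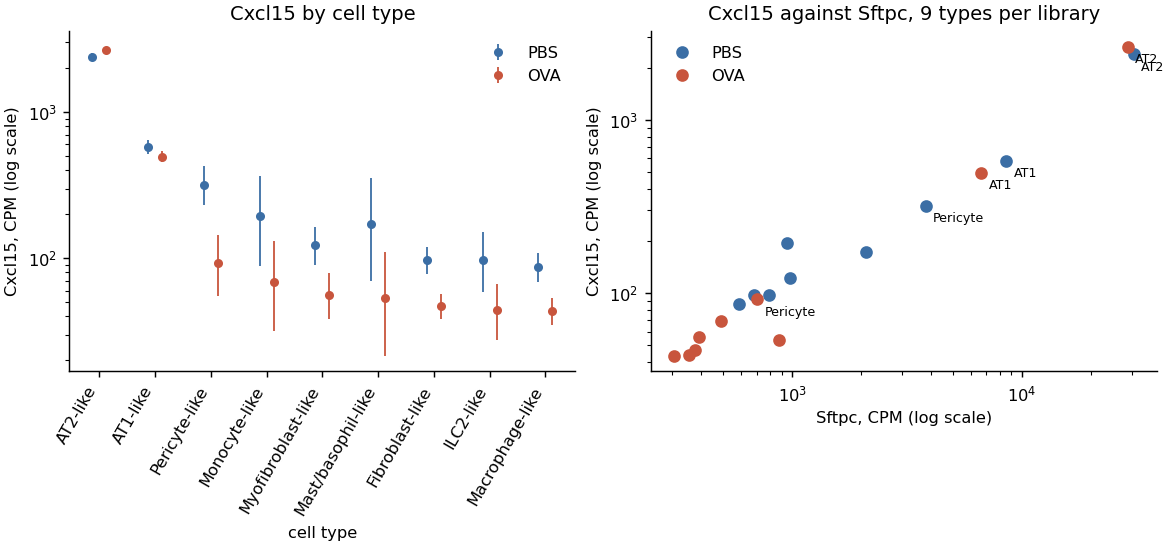
Left, Cxcl15 level (CPM, log scale) in 9 cell types with 95% counting intervals. Right, Cxcl15 against Sftpc (both CPM, log scales), 1 point per type and library. AT2-like nuclei stand at 2385 and 2643 CPM, AT1-like nuclei follow at 577 and 494, and across types Cxcl15 was higher where Sftpc was higher.

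Macrophage-like nuclei had the most raised CC ligands, and the CXC ligand Cxcl2 was raised there too. Ccl6, a CC ligand known from rodents, stood at 907 and 562 CPM, 14.7-fold and 15.2-fold the other types. Its neighbour Ccl9 stood at 265 and 185 CPM (13.6-fold and 10.4-fold). Cxcl2, a neutrophil attractant, stood at 252 and 354 CPM (9.96-fold and 8.78-fold). Ccl3 and Ccl4, inflammatory ligands of myeloid cells, were at 46.1 and 59.1 CPM and at 21.0 and 33.5 CPM, and Ccl2, which recruits monocytes, stood at 14.7 and 12.8 CPM. All 6 were raised in both libraries. Barcodes with fewer than 200 genes held Ccl3 at 71.3 and 67.2 CPM, Ccl4 at 27.2 and 26.9 CPM and Ccl2 at 30.6 and 40.3 CPM. Ccl3 and Ccl2 were higher there than in macrophage-like nuclei in both libraries, and Ccl4 in the PBS library. In the same barcodes Ccl6 was at 255 and 215 CPM, Ccl9 at 102 and 108 CPM and Cxcl2 at 122 and 336 CPM. The call of Ccl2 was lost when all gene UMIs were the denominator. For Ccl6, 25.5% and 33.0% of macrophage-like nuclei had a UMI against 4.4% and 4.2% of fibroblast-like nuclei, or 21.3% and 15.6% against 2.9% and 1.2% at 500 UMIs each, so the order of the libraries depends on depth.

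These ligands were not spread evenly over macrophage-like nuclei. Cluster c10, led by Atp6v0d2, Inhba, Gpnmb, Car4, Spp1 and Fabp4, held 11.9% and 11.6% of them, 137 and 164 nuclei. It held 74.1% (71.1 to 77.0) and 54.4% (51.5 to 57.3) of their Ccl6 UMIs. It held 64.0% and 59.2% of their Ccl9 UMIs and 55.0% and 55.1% of their Cxcl2 UMIs. Ccl6 stood at 4217 and 2334 CPM in c10, against 286 and 304 in c0 and 283 and 302 in c2. Ccl3 stood at 197 and 241 CPM in c10. Ccr2, the monocyte receptor for Ccl2, ran the other way, at 92.0 and 63.9 CPM in c10 against 216 and 123 in c0 and 242 and 123 in c2. Cluster c16, led by C1qa, Fcrls and Ms4a7, had 49 and 52 nuclei and the highest Cx3cr1 of the 4 clusters, at 510 and 334 CPM.

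**Figure D3:**
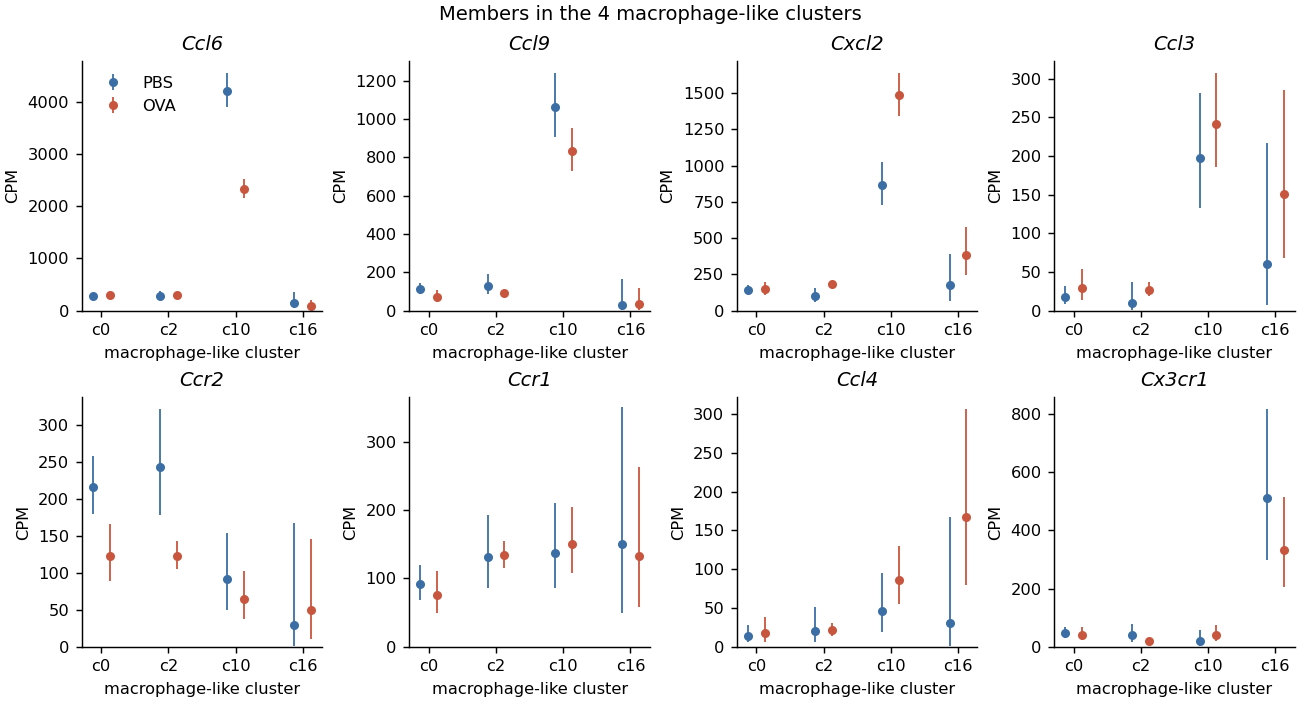
Level (CPM) of members in the 4 macrophage-like clusters of each library, with 95% counting intervals. Ccl6 reached 4217 and 2334 CPM in c10 and lay between 283 and 304 CPM in c0 and c2, while Ccr2 was lower in c10 than in c0 and c2 of the same library.

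Fewer ligands were raised in connective tissue types. Cxcl12, the ligand of Cxcr4, stood at 24.1 and 16.5 CPM in fibroblast-like nuclei (5.64-fold and 3.81-fold) and at 20.5 and 19.3 CPM in myofibroblast-like nuclei (2.63-fold and 2.68-fold). Cxcl14, a CXC ligand of epithelia and stroma, stood at 29.5 and 18.7 CPM in fibroblast-like nuclei. Ccl11, the eosinophil attractant eotaxin, stood there at 15.3 and 17.4 CPM, from 14 and 40 UMIs, and was 10.8-fold and 12.6-fold the other types. Its receptor Ccr3 had 1 UMI in all nuclei. The 5 eosinophil markers gave 3 and 4 UMIs in macrophage-like nuclei and at most 1 per library in the other types compared. Eosinophils were thus hardly sampled, and the count of Ccr3 does not describe them. Cxcl1 was highest in pericyte-like nuclei, at 37.0 and 43.6 CPM from 5 and 9 UMIs. Cxcl16, a membrane-bound ligand of Cxcr6, was raised in AT1-like nuclei at 54.5 and 44.8 CPM (7.69-fold and 6.28-fold).

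Small immune groups carried further ligands. In mast cell or basophil-like nuclei, of which there were 60 and 118, Ccl4 stood at 98.7 and 168 CPM (11.7-fold and 12.8-fold). Ccl3 there was 74.0 CPM from 3 UMIs in the PBS library and 289 CPM from 38 UMIs in the OVA library, and was not called raised. In NK cell or ILC1-like nuclei, 20 and 59 in number, Ccl5 (RANTES) stood at 923 and 688 CPM from 8 and 28 UMIs. These were 36 of the 52 Ccl5 UMIs of both libraries. In neutrophil-like nuclei, 18 and 59 in number, Cxcl2 had 0 UMIs among PBS nuclei, a count that still permits 296 CPM, and 44 UMIs or 1274 CPM among OVA nuclei. A Cxcl2 UMI was found in 33.9% of the OVA neutrophil-like nuclei (median 370 nuclear UMIs) against 2.4% of OVA fibroblast-like nuclei. Both groups fall under the 50 nuclei asked of a comparison.

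Of the ligands under 50 UMIs, Cxcl3 and the Ccr2 ligand Ccl12 had most of theirs in macrophage-like nuclei, with 7 and 19 of 43 UMIs and 10 and 20 of 37 UMIs. Cx3cl1, the membrane-bound ligand of Cx3cr1, had 33 UMIs, of which the most in 1 type, 2 and 8, lay in AT1-like nuclei. Ccl17 and Ccl22, the ligands of Ccr4, had 3 and 1 UMIs over all nuclei. Ccl1 and Ccl8, which bind Ccr8, had 11 and 2. The interferon-induced ligand Cxcl10 had 60 UMIs, with 9 in macrophage-like nuclei of each library, and its receptor Cxcr3 had 3. Ccl7, another Ccr2 ligand, had 3 and 22 UMIs in fibroblast-like and 10 and 7 in macrophage-like nuclei, so its leading type by UMIs was not the same in both libraries.

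Receptors for inflammatory CC ligands were raised in the myeloid types. Ccr2 stood at 537 and 399 CPM in monocyte-like nuclei (6.91-fold and 8.65-fold) and at 195 and 113 CPM in macrophage-like nuclei (4.32-fold and 3.82-fold). Ccr1, which reads Ccl3, Ccl5, Ccl6 and Ccl9, stood at 129 and 177 CPM in monocyte-like and 109 and 127 CPM in macrophage-like nuclei, and at 129 and 148 CPM in barcodes with fewer than 200 genes. All 4 pairs were raised in both libraries. Macrophage-like nuclei thus held both Ccl6 and Ccl9 and their receptor Ccr1. The intervals of Ccr1 in the 2 types overlap, so their order is not resolved for this gene. Ccr2 also stood at 144 and 114 CPM in ILC2-like nuclei, 1.79-fold and 2.38-fold the other types, and was not called raised there. At its RefSeq start, a position chosen after the data were seen, accessibility was 2.56-fold and 2.13-fold in ILC2-like nuclei. It was 4.52-fold and 3.85-fold in macrophage-like and 1.99-fold and 0.90-fold in monocyte-like nuclei.

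ILC2-like nuclei had receptors of their own. Ccr9, the receptor for Ccl25 known from gut homing, stood at 267 and 290 CPM, from 52 and 145 UMIs, 62.8-fold (34.8 to 120) and 68.8-fold (45.9 to 106) the other types. Cxcr6, which marks tissue-resident lymphocytes, stood at 154 and 89.9 CPM from 30 and 45 UMIs, 109-fold (41.8 to 359) and 88.5-fold (39.6 to 233). A Ccr9 UMI was found in 11.3% and 19.2% of ILC2-like nuclei, at median depths of 452 and 894 nuclear UMIs, and in 0.37% and 0.39% of fibroblast-like nuclei. At 500 UMIs per nucleus the ILC2-like shares were 11.8% and 8.7%. For Cxcr6 they were 7.7% and 7.2%, or 7.9% and 3.4% thinned. Ccr8 and Ccr4, receptors linked with type 2 lymphocytes, were sparse, with 6 and 30 UMIs (30.8 and 59.96 CPM) and 4 and 14 UMIs (20.5 and 28.0 CPM) in ILC2-like nuclei. These were 36 of 44 and 18 of 28 UMIs in all.

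Cxcr4 was raised in 3 types. It stood at 543 and 373 CPM in mast cell or basophil-like nuclei (21.7-fold and 21.3-fold), at 133 and 150 CPM in pericyte-like nuclei (4.99-fold and 7.44-fold) and at 77.0 and 66.0 CPM in ILC2-like nuclei (2.75-fold and 3.18-fold). The ILC2-like level was close to that of barcodes with fewer than 200 genes, which held Cxcr4 at 50.9 and 67.2 CPM. The share of mast cell or basophil-like nuclei with a Cxcr4 UMI was 18.3% and 22.0%, and 14.7% and 13.2% thinned. Cxcr2 had 34 UMIs in all, with 3 and 6 UMIs in neutrophil-like nuclei (296 and 174 CPM). Barcodes with fewer than 200 genes, where the neutrophil markers summed to 1948 and 4329 CPM, held it at 50.9 and 80.7 CPM. Of the atypical receptors only Ackr3, a scavenger of Cxcl12, passed 50 UMIs. In all, 111 of its 144 UMIs lay in the unnamed cluster c20, led by the endothelial genes Cyyr1, Tie1 and Robo4, at 124 and 118 CPM over 24 and 34 nuclei. The same cluster held the 6 AT2 markers at 7802 and 5126 CPM and the 6 AT1 markers at 3125 and 3839 CPM. Whether its barcodes hold RNA of more than 1 nucleus was not tested, so Ackr3 is not assigned to a type here.

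The counts of some members may include other transcripts. Cx3cr1, the fractalkine receptor of microglia and macrophages, was called raised in mast cell or basophil-like nuclei (247 and 305 CPM, 3.68-fold and 4.39-fold). It also stood at 146 and 119 CPM in myofibroblast-like and 104 and 145 CPM in pericyte-like nuclei, above the 56.6 and 35.5 CPM of macrophage-like nuclei. At its start, pericyte-like nuclei had 0 transposition counts in either library and myofibroblast-like nuclei 3 and 2. ILC2-like nuclei were 5.57-fold and 4.89-fold, and mast cell or basophil-like nuclei 5.29-fold and 3.59-fold, the other types in accessibility. In GENCODE M21 the gene spans 168264 bp at chr9:119901616-120069879 on the minus strand and overlaps Csrnp1, Gorasp1 and Xirp1 on the same strand and further genes on the other. Ccl25, the ligand of Ccr9, spans 34811 bp and overlaps Elavl1 on the opposite strand. Its accessibility at the start was flat over types, between 0.85-fold and 1.34-fold. Whether strand was used in counting is not given in the sources used here, so the levels of both genes are uncertain. Ccr9 also overlaps other genes in GENCODE M21, and the same uncertainty applies to its levels given above.

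Chromatin accessibility was read at the start of each member from peaks within 1 kb, in transposition counts per 1000000 over the peaks shared by the libraries. Of the 26 raised pairs of member and type, 23 had such a peak in both libraries. In 16 of them (69.6%) the start was more open than in the other types in both libraries, with intervals above 1, against 55.9% of 6860 raised pairs over all genes. In macrophage-like nuclei it was 7 of 8 members, against 44.2% of genes. The largest fold was at Cxcr6 in ILC2-like nuclei, 46.4-fold and 38.1-fold from 44 and 78 counts. Ccl6 in macrophage-like nuclei followed at 15.6-fold and 37.4-fold, and Cxcl15 in AT2-like nuclei at 12.2-fold and 25.7-fold. Ccl9 (8.36-fold and 7.99-fold), Ccr1 (6.41-fold and 8.84-fold), Ccl3 (5.47-fold and 6.02-fold) and Cxcl2 (4.59-fold and 5.16-fold) were also more open in macrophage-like nuclei. These starts were more open in monocyte-like nuclei too. Per 1000000, Ccl9 had 42.0 and 36.3 there against 34.9 and 32.5 in macrophage-like nuclei, and Ccr1 45.2 and 40.5 against 35.9 and 37.5. Ccl3 had 74.3 and 48.1 against 38.6 and 41.0, while Cxcl2 had 56.5 in both libraries against 68.5 and 65.9.

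Raised pairs that were not more open in both libraries included those of Cxcr4, Ccr9 in ILC2-like and Ccl4 in mast cell or basophil-like nuclei. The Ccl4 start was at 1.85-fold (0.97 to 3.22) and 1.40-fold (0.80 to 2.28). The Cxcr4 start was at 0.64-fold and 1.03-fold in mast cell or basophil-like, 0.88-fold and 1.68-fold in pericyte-like and 0.96-fold and 1.39-fold in ILC2-like nuclei. Ccr9 in ILC2-like nuclei was at 2.47-fold (1.73 to 3.47) and 1.34-fold (0.87 to 2.00) at the listed start. At its RefSeq start, 7329 bp away, it was at 6.75-fold and 5.43-fold. That position was chosen after the data were seen. With RefSeq starts throughout, 15 of 19 pairs were more open. These are not the same set of pairs as those counted at the listed starts, and no share over all genes is given for RefSeq starts. The count therefore does not show that raised pairs were more often open at RefSeq starts.

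**Figure D4:**
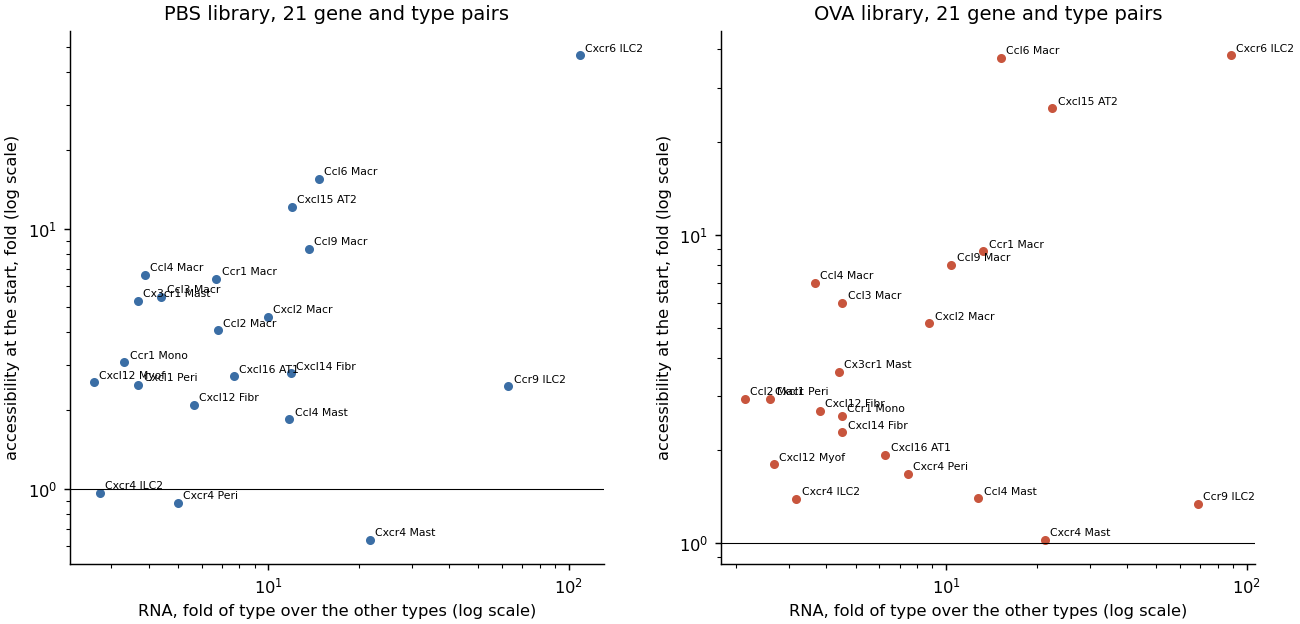
Fold of a type over the other types in RNA (horizontal) and in accessibility at the gene's start (vertical), both on log scales, for 21 raised pairs of member and type in each library. Most points lie above 1 on the vertical axis; Cxcr6 in ILC2-like nuclei stands highest at 46.4-fold and 38.1-fold.

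Levels in the OVA library were set against those in the PBS library within each type, to describe how these 2 libraries differ. With 1 dam and 1 library each, treatment cannot be told apart from dam, pool or library. A difference was called where it was at least 2-fold with an interval leaving out equality and at least 50 UMIs. By this rule 10 of 38 tested pairs of member and type were called, 3 higher and 7 lower in the OVA library. In fibroblast-like nuclei 2 of 9 members were higher (1.25% of genes) and 3 lower (1.16%). In macrophage-like nuclei 1 of 12 was higher (1.65%) and 1 lower (1.87%). In myofibroblast-like nuclei 0 of 3 were higher (1.14%) and 2 lower (1.25%), and in pericyte-like nuclei 0 of 1 were higher (4.06%) and 1 lower (3.01%). None was called among 4 members in AT1-like (2.31% of genes either way), 1 in AT2-like (2.69%), 4 in ILC2-like (6.85%), 2 in mast cell or basophil-like (15.5%) and 2 in monocyte-like nuclei (11.5%). The median ratio of all genes, in log2, lay between 0.01 in AT1-like and 0.25 in monocyte-like nuclei, and centring on it left the count at 10.

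The 3 pairs called higher were of Cxcl1 and Ccl25. In fibroblast-like nuclei Cxcl1 stood at 10.9 and 29.9 CPM from 10 and 69 UMIs, a log2 ratio of 1.45 (0.49 to 2.58). Within fibroblast-like clusters c1 and c4 it was 0.50 and 0.71, both under 2-fold, and accessibility at its start gave -0.33. Ccl25 stood at 14.2 and 29.5 CPM in fibroblast-like nuclei, a log2 ratio of 1.05 (0.18 to 2.03), and fell under the threshold without 2 ribosomal RNA genes in the denominator, under the marker gate per nucleus (both 0.99) and after thinning (0.94). Within clusters it was 2.37 in c1, 0.57 in c4 and 0.24 in c7. In macrophage-like nuclei it stood at 12.6 and 31.0 CPM, a log2 ratio of 1.30 (0.40 to 2.33), but 0.15 within c0 and 1.28 within c2. The uncertainty from Elavl1 applies to both. The 18 dissociation stress genes had a median log2 ratio of 0.09 in fibroblast-like and -0.21 in macrophage-like nuclei.

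The 7 pairs called lower were all of a member in a type other than its leading one. Cxcl15 had log2 ratios of -1.05 (-1.47 to -0.63) in fibroblast-like, -1.005 (-1.45 to -0.55) in macrophage-like, -1.13 (-1.83 to -0.46) in myofibroblast-like and -1.79 (-2.65 to -0.98) in pericyte-like nuclei. The summed level of the 6 AT2 markers moved with it in these types, from 904 to 483, 854 to 435, 1246 to 516 and 5031 to 979 CPM, and each of the 6 was lower in each type. In AT2-like nuclei themselves Cxcl15 had a log2 ratio of 0.15 (0.03 to 0.27) and the marker list -0.05. The part of AT2 RNA in these lower values was not tested. Ccl6 was lower in fibroblast-like (-1.04, -1.61 to -0.46) and myofibroblast-like nuclei (-1.11, -1.98 to -0.26), and Ccr2 in fibroblast-like nuclei (-1.39, -2.20 to -0.57). The 8 macrophage markers summed to 349 and 441 CPM in fibroblast-like nuclei, although 7 of the 8 were lower in the OVA library, and to 123 and 119 CPM in myofibroblast-like nuclei. With all gene UMIs as denominator, 5 of these 7 calls were lost, those of Cxcl15 in pericyte-like and of Ccr2 in fibroblast-like nuclei remaining. With at most 40% mitochondrial UMIs the first of these remained, and with types gated nucleus by nucleus the second. Cxcl15 in macrophage-like nuclei then had -0.20 and 0.020, and -0.22 within c2.

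None of the 19 tested pairs of a member in a type where it was raised was called, with log2 ratios from -0.79 to 0.68. Ccl3 in mast cell or basophil-like nuclei, where its level was highest, had 1.97 (0.31 to 4.31) from 3 and 38 UMIs, under the 50 asked for. In macrophage-like nuclei Ccl6 had -0.69 (-0.82 to -0.56), Ccl9 -0.52 (-0.76 to -0.29) and Ccr2 -0.79 (-1.07 to -0.50), while Cxcl2 had 0.49 (0.28 to 0.71). Ccr2 had -0.08 among nuclei with at most 40% mitochondrial UMIs and -0.22 under the gate. Ccl6 passed 2-fold under the same filters, at -1.18 and -1.31. It was not uniform over clusters, being 0.09 within both c0 and c2 and -0.85 (-1.01 to -0.69) within c10. Cxcl2 was 0.05 within c0, 0.86 within c2 and 0.78 (0.49 to 1.08) within c10, and Ccr2 was -0.81 within c0 and -0.98 within c2. At the starts of Ccl6 and Cxcl2 accessibility in macrophage-like nuclei had log2 ratios of -0.00 (-0.23 to 0.22) and -0.06 (-0.20 to 0.09). Intervals for Ccr1 (0.22, -0.12 to 0.56) and Ccl3 (0.36, -0.15 to 0.89) include equality, as does Cxcr4 in mast cell or basophil-like nuclei (-0.54, -1.29 to 0.26). In ILC2-like nuclei Ccr9 had 0.12 (-0.35 to 0.60) and Cxcr6 -0.78 (-1.47 to -0.06).

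**Figure D5:**
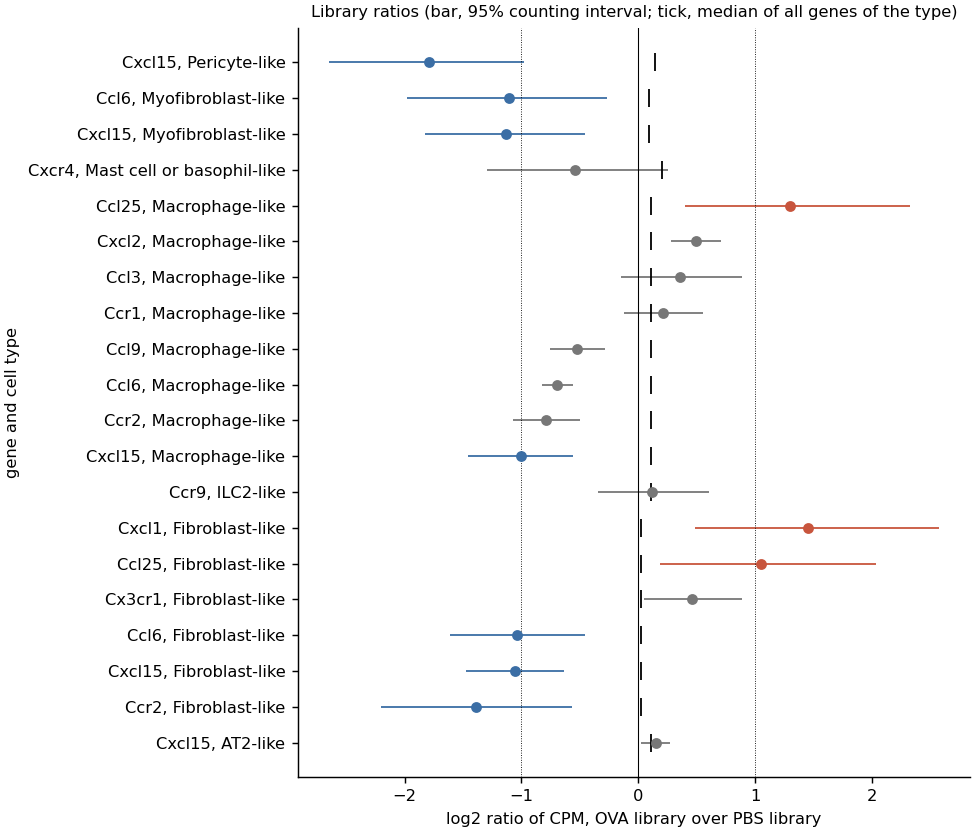
Log2 ratio of CPM, OVA over PBS library, for 20 pairs of member and type, with 95% counting intervals and the median of all genes of the type as a tick. Cxcl1 and Ccl25 in fibroblast-like and Ccl25 in macrophage-like nuclei lie at 1.05 or above, and Cxcl15 in pericyte-like nuclei lies lowest at -1.79.

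The machinery behind the receptors was described with 26 genes of chemokine signalling, 25 of which had at least 50 UMIs. In macrophage-like nuclei 12 of 25 were raised (12.2% of all genes), among them Dock2, the Rac activator of leukocyte migration (1490 and 1763 CPM), and the Src kinase Lyn (1101 and 1614 CPM). In ILC2-like nuclei 8 were raised (5.98%), with Dock2 at 2233 and 3288 CPM and Rgs1, a brake on Gi signalling, at 380 and 432 CPM. Mast cell or basophil-like (3%) and monocyte-like nuclei (3.56%) had 6 each, fibroblast-like 3 (7.76%), pericyte-like 2 (4.26%), AT2-like 1 (6.27%), and AT1-like (9.31%) and myofibroblast-like (5.9%) 0. Between the libraries, 1 of 16 tested genes was called higher in ILC2-like nuclei, the Gi subunit Gnai3 at 66.7 and 174 CPM (1.38 in log2), and none lower, near the 6.85% of genes called either way. Called lower were 1 of 15 in fibroblast-like (1.16% of genes) and 2 of 11 in myofibroblast-like nuclei (1.25%). The median of the list was 0.27 in ILC2-like nuclei, where that of all genes was 0.11, and -0.10 in macrophage-like nuclei, where that of all genes was also 0.11. Of 7 related chemoattractant genes, 3 were tested in macrophage-like nuclei and 1 was lower (1.87% of genes), with a median of -0.61.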

How the data were processed

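The authors deposited 1 feature-by-barcode table of counts for each library (UMIs per gene and transposition counts per peak, not normalized), with peaks called in each library separately. The submitters' processing notes name Cell Ranger ARC 2.0.1 and mm10; the annotation version and the use of strand in counting are not given in the sources used here.

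Barcodes with fewer than 200 genes or more than 60% mitochondrial UMIs were removed, and then doublets scored against simulated doublets (293 and 250). The number removed followed a rate set from the number of barcodes. Nuclei of both libraries were clustered together without batch correction on 3000 variable genes, 30 principal components and 15 neighbours (Leiden, resolution 1.0), leaving out all members, related chemoattractant and mitochondrial genes. A cluster was named from at least 3 detected markers of a type, all outside the family.

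UMIs were summed per type and library, as CPM over nuclear-gene UMIs. Intervals are exact (Poisson for levels, Clopper-Pearson for shares, conditional binomial for ratios), cover counting error only, and no test was run because each treatment has 1 library. Both 2-fold rules were also run on all genes. The scripts were checked on simulated data. Thinned shares use 500 nuclear UMIs per nucleus and leave out shallower nuclei. Promoters are from the RefSeq table for GRCm38.p6, which matched 45 of 60 symbols, and gene bodies from GENCODE M21.

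Members with at least 50 UMIs were to be named, those with at least 200 with their CPM, partners of described members besides, and between libraries every called pair and the pair with the most UMIs of each member with at least 200. Members, marker lists and rules were chosen with earlier results of these data known. One member is counted but its values are not reported here. Alternatives changed the denominator, filters, typing, thresholds and start windows. Tools were Python 3.11.15, numpy 2.4.6, pandas 2.3.3, scipy 1.17.1, scikit-learn 1.9.0, igraph 0.11.9, leidenalg 0.10.2 and matplotlib 3.10.9.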

Additional observations from a re-analysis of the deposited data

Results flagged for a closer look

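For 3 members the counting interval of the log2 ratio lay above 0 in one type and below 0 in another, among pairs with at least 50 UMIs, and none of these differences was tested because each library is a single sample. Ccl6 stood at 30.5 and 59.7 CPM in AT1-like nuclei, a ratio of 0.97 (0.21 to 1.79). The gap was 2.01 to fibroblast-like, 1.66 to macrophage-like and 2.08 to myofibroblast-like nuclei. Cxcl15 was 0.15 in AT2-like nuclei and negative in the types around them, a gap of 0.37 to AT1-like, 1.20 to fibroblast-like, 1.15 to macrophage-like, 1.28 to myofibroblast-like and 1.94 to pericyte-like nuclei. The AT2 marker list was lower in the OVA library in the last 4 types, and also in AT1-like nuclei, at 11198 and 8910 CPM. Cx3cr1, whose counts are uncertain for the overlap with other genes, was 0.46 in fibroblast-like nuclei and differed from macrophage-like nuclei by 1.13.

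Ccl5 was found in a type too small for the comparisons, NK cell or ILC1-like nuclei, at 922.8 CPM in the PBS and 687.8 CPM in the OVA library, from 8 and 28 UMIs.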

How the results depend on the processing

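No paired analysis was possible because each treatment has 1 library, and no replicate could be left out. The number of members raised in at least 1 type, 19 of 24, ranged from 16 to 23 over the alternatives run, with other numbers tested. It was 16 of 21 with at most 40% mitochondrial UMIs and 18 of 20 with a joint count filter. With a minimum of 100 UMIs it was 16 of 18, and with 20 it was 23 of 32. The 10 calls between the libraries were less stable. They numbered 7 with all gene UMIs as denominator, 9 without 2 ribosomal RNA genes, 7 with nuclei weighted equally, 11 with doublets kept and 10 without the 30 shared barcodes (an alternative chosen after seeing the data). They were 5 of 26 tested with at most 40% mitochondrial UMIs, 5 of 26 with a joint count filter and 4 of 29 with types gated nucleus by nucleus, of which 3, 4 and 2 were among the 10. They were 18 of 72 with a minimum of 20 UMIs, 3 of 18 with 100, 16 at 1.5-fold, 1 at 3-fold and 3 of 22 after thinning. The stricter filters and the gate left 7 types, because monocyte-like and mast cell or basophil-like nuclei fell under 50. The leading type, set for 24 members in 2 libraries (48), then stayed for 24, 25 and 23 of the 27 whose type remained.

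Of 206 values of named pairs outside single clusters, 189 moved by less than their interval, 15 by more, and 2 reversed a called difference. In all, 11 of the 206 changed sign. Gating gave Ccl6 in myofibroblast-like nuclei 0.52 and Cxcl15 in macrophage-like nuclei 0.020. Of 51 values within clusters, computed after seeing the data, 27 stayed within the interval, 22 moved and 2 reversed a called difference, Ccl6 within fibroblast-like c4 (1.64) and Cxcl15 within myofibroblast-like c15 (0.14). In all, 8 of the 51 changed sign. The causes were not tested. The 16 of 23 starts more open became 17 of 25 at 2 kb and 19 of 26 at 5 kb. Depth limits all members under 50 UMIs.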
